A study of Rousettus aegyptiacus with 32 samples.

Results

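A set of 1957 regions of the Egyptian fruit bat genome was open in the cerebellum of both animals and carried no peak in any of the other 18 libraries. In ATAC-seq a transposase cuts and tags accessible DNA, and a peak is a stretch where such cuts pile up. A peak was called strong when it was among the 50000 intervals of its library with the highest -log10 p, the peak caller's score for a pile-up against its local background. The strong peaks of both cerebellum libraries were merged, and 43507 merged regions held a strong peak of each library. Of these, 1957 (4.50%) overlapped no deposited peak of any strength in the other tissues, and they are called cerebellum-only regions below. They were thus chosen by their -log10 p in cerebellum and by the positions of the peaks of all 20 lists. The other 41550 had a peak somewhere else. All 20 peak lists together cover 856519 separate regions.

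The peak lists come from a study of regulatory elements and proteins that evolved alongside vocal learning in mammals. ATAC-seq was done on bulk tissue of 2 adult males of Rousettus aegyptiacus, bats 1 and 3, with 1 library per tissue and animal. Each gave 4 areas of cortex (secondary auditory, premotor, and primary motor cortex of the orofacial and of the wing region), caudate nucleus, putamen, cerebellum, liver, pectoralis muscle and testis. No treatment or genotype is named. RNA-seq of other animals had no cerebellum sample, so no expression value goes with the regions. Bulk nuclei were used, so a site open in a few cells and a site weakly open in many cannot be told apart.

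The cerebellum adjusts movement, posture and timing. Most of its neurons are small excitatory granule cells. Their axons meet Purkinje cells, the inhibitory neurons that carry the output of the cerebellar cortex, alongside basket, stellate and Golgi interneurons and the Bergmann glia. Regulatory DNA is often divided into promoters, which lie at gene starts and tend to be open in many tissues, and enhancers, which can lie far from genes and are more often open in particular cell types.

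Absence has a limit set by the lists. They held 155151 to 238945 separate intervals each, and 15 of the 20 had exactly 300000 rows, several rows sharing an interval. The lowest -log10 p kept ran from 2 in liver to 12.3 in the caudate of bat 1, so a weak peak below that level would not be seen there. Read depth does not go with the lists, and the depth behind each peak is unknown. The files name scaffolds but no genome build. The RefSeq gene table used here (mRouAeg1.p) gives positions without a scaffold or strand. Genes were therefore placed by matching runs of genes to the scaffold on whose strong peaks their ends fell. This matched 21 runs and 19054 of 19070 protein-coding genes, and in 370 of 372 windows of 50 genes no other scaffold matched as well. Every gene named beside a region rests on that inferred placement. Since the rule used all 20 lists, the values below are descriptions and carry no test, and 2 animals limit their precision.

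The regions were moderate peaks rather than the strongest of the cerebellum. Fold enrichment, the authors' height of a peak over its local background, ranged from 2.66 to 28.9 in bat 1, with a median of 7.76. In bat 3 it ranged from 2.45 to 24.3, with a median of 6.66. Strong cerebellum regions with a peak elsewhere had higher medians in both animals, 9.81 in bat 1 and 8.51 in bat 3. The -log10 p had a median of 95.1 in bat 1 and 35.7 in bat 3, against 139 and 56.1 for regions with a peak elsewhere. At least 10-fold enrichment in both animals was seen at 323 cerebellum-only regions (16.5%), and at 37.0% of the others. Only 2 of the 1000 strongest cerebellum regions were cerebellum-only (0.2%), rising to 54 of the first 5000 (1.08%) and 161 of the first 10000 (1.61%), where 4.50% is the share over all. The regions were 188 to 2362 bases wide with a median of 752, narrower than the median of 868 for the others, and added up to 1533 kb.

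**Figure D1:**
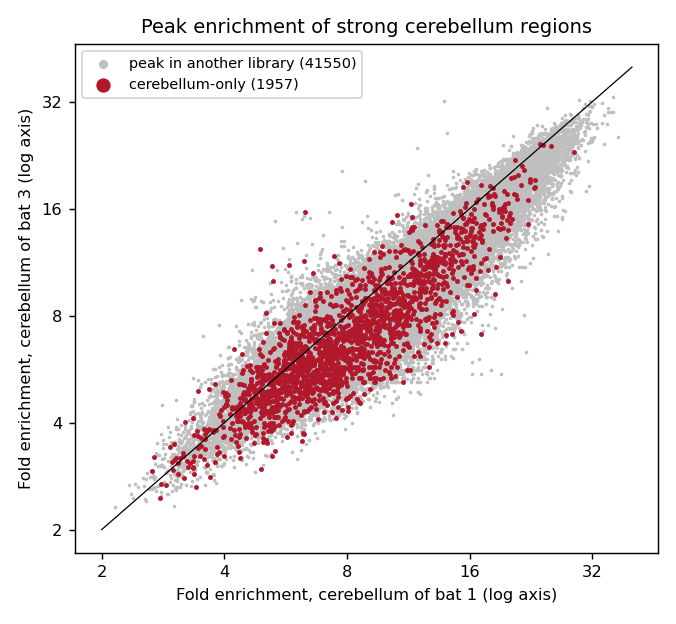
Fold enrichment of each strong cerebellum region in bat 1 (x axis) and bat 3 (y axis), both on log axes, with the line of equal enrichment. Cerebellum-only regions (red, 1957) lie along the same diagonal as regions with a peak elsewhere (grey, 41550), lower on average, with medians of 7.76 and 6.66.

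The rule asked for a strong peak in both animals, so how alike their values are is in part fixed by the choice of regions. Across the 1957 regions, the log2 fold of bat 1 and bat 3 had a Pearson correlation of 0.872 and a Spearman correlation of 0.846, against 0.923 and 0.915 across the 41550 others. These are correlations across regions of the same pair of libraries, and regions are not replicates. The folds of the pair were within 1.5-fold of each other at 1764 regions (90.1%). Bat 1 had the higher fold at 1513 (77.3%), much as at regions with a peak elsewhere (75.9%). The strongest summits of the pair lay within 100 bases of each other at 1872 regions (95.7%), with a median distance of 8 bases. A single summit in both animals was found at 610 regions.

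Values on both sides of the thresholds were close. The member nearest the rank limit, NW_023416306.1:103176924-103177304, ranked 41079 in bat 1 and 49978 in bat 3. A region just outside, NW_023416306.1:136370961-136371318, ranked 45164 and 50033, and 65 more regions entered at a limit of 51000. On the side of absence, the members closest to a peak of another library were 0, 3 and 7 bases from it, and the regions just outside overlapped such a peak by 2, 3 and 6 bases. The distance from a cerebellum-only region to the nearest peak of another library had a median of 805 bases, and 1283 regions were at least 500 bases away. Only 37 were at least 10 kb away, the farthest 42.0 kb. Peaks of the 20 lists together cover 442 Mb and lie a median of 969 bases apart, so neighbouring peaks are the rule.

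Other strong cerebellum regions were shared to different degrees. A peak in all 18 other libraries was found at 8774 regions (20.2%), and in all 12 libraries of cortex and striatum at 28603. Each cortical or striatal list held a peak at 75% to 82.4% of the strong cerebellum regions, and each liver, muscle or testis list at 33.0% to 67.2%. A peak in exactly 1 other library was found at 1439 regions (3.31%). For 1126 of these (78.2%) that library was liver, muscle or testis, and for 313 it was from the brain. Muscle of bat 3 alone accounted for 260 and liver of bat 1 for 233, while the orofacial motor cortex of bat 3 accounted for 12. Of those 6 peripheral lists, 5 reached down to a -log10 p of 2, lower than every brain list, and the part of that difference was not tested. When only the 12 cortical and striatal libraries had to lack a peak, 4555 regions qualified (10.5%).

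The cerebellum-only regions lay away from gene ends. Without a strand, a gene's start cannot be told from its end, so a region was counted at a gene end when it came within 1 kb of either end of a protein-coding gene. This was the case for 30 of 1957 regions (1.53%, 95% Wilson interval 1.08% to 2.18%, counting error only). Among strong cerebellum regions with a peak elsewhere it was 25.8%. Inside a gene lay 841 cerebellum-only regions (43.0%, 40.8% to 45.2%), against 62.6% of the others. The median distance to the nearest gene end was 76.4 kb, against 18.8 kb. More than 100 kb from any protein-coding gene lay 600 regions (30.7%, against 12.3%), and more than 500 kb away lay 129 (6.59%, against 1.98%).

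This position was not particular to regions found in cerebellum alone. Strong cerebellum regions with a peak in 1 to 11 other libraries had 1.09% to 2.76% of their number at a gene end, a range that holds the value of 1.53%. With broader sharing it rose, to 14.8% with 16 other libraries, 44.2% with 17 and 67.2% with all 18. The share inside a gene went from 43.0% with none and 41.9% with 1 to 82.6% with 18. Median fold stayed between 7.76 and 8.29 in bat 1 for 0 to 12 other libraries and reached 13.7 with 18.

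**Figure D2:**
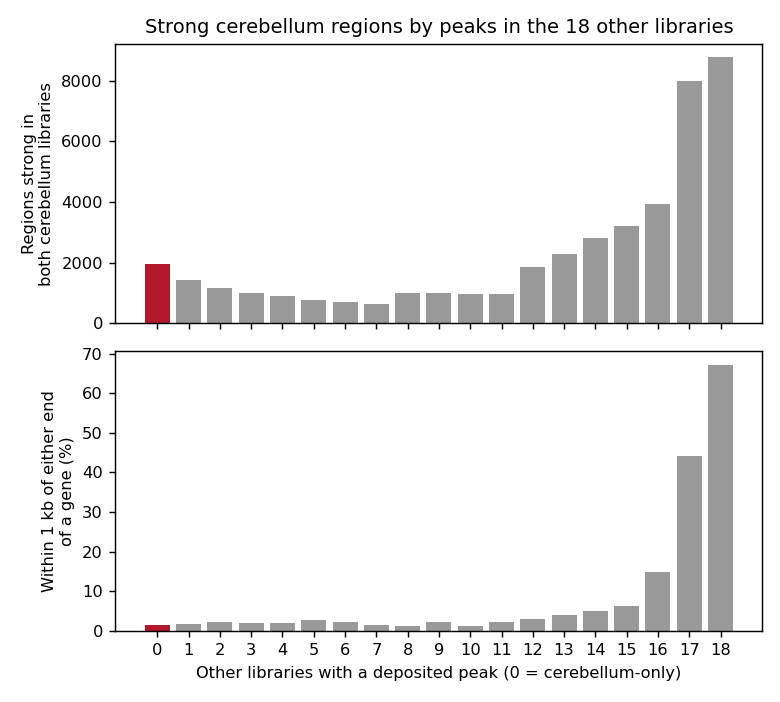
Strong cerebellum regions by the number of other libraries with a deposited peak (x axis, 0 to 18), as the number of regions (top) and the percent within 1 kb of either end of a protein-coding gene (bottom). The cerebellum-only bar (red) holds 1957 regions and 1.53%, and the bar for 18 libraries 8774 regions and 67.2%.

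Testis-only and muscle-only regions, found by the same rule, lay nearer to gene ends; liver was not compared. Of 2012 testis-only regions, 5.82% were at a gene end and 17.9% were over 100 kb from a gene, with a median of 30.5 kb to a gene end. Of 1064 muscle-only regions, 5.92% were at a gene end and 7.71% were over 100 kb away, with a median of 18.8 kb. Each of these values for cerebellum (1.53%, 30.7% and 76.4 kb) lay on the far side of both. The share inside a gene, 44.8% for testis and 59.6% for muscle, was within the interval of the cerebellum value (43.0%) for testis. Testis-only regions had a median width of 508 bases and muscle-only regions of 701.5 bases, against 752.

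The 12 strongest cerebellum-only regions, by the weaker of their -log10 p values, held none at a gene end: 2 lay inside a gene and 10 between genes. The first, NW_023416306.1:58708490-58709187, had 15.7-fold enrichment in bat 1 and 18.97-fold in bat 3, with -log10 p of 658 and 460, and lay 49.6 kb from CNTLN, a centriole gene. It ended 93 bases from a peak of another library. The second, NW_023416290.1:43858947-43859437, had 17.1-fold and 18.7-fold enrichment and lay 375 kb from CSMD3. The third, NW_023416295.1:110367549-110368308, had 25.4-fold and 24.0-fold enrichment and lay 188 kb from SYT1, the calcium sensor of synaptic vesicle release. All of these exceeded the third quartile of the regions, 10.6-fold in bat 1 and 8.81-fold in bat 3.

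Inside SLC9A9, which encodes an endosomal sodium/proton exchanger, NW_023416307.1:93762717-93763822 had 22.5-fold and 19.4-fold enrichment and the highest -log10 p of any member in bat 1, 994. Inside GALNTL6, NW_023416291.1:24785737-24787178 had 18.2-fold and 18.3-fold enrichment. Between genes, NW_023416285.1:28968921-28969804 lay 140 kb from TACR3, the neurokinin B receptor, with 20.6-fold and 21.9-fold enrichment. A further member near this gene, NW_023416285.1:29168227-29169086, was 0.711 kb from the gene, with 7.33-fold and 6.10-fold enrichment. The region NW_023416286.1:50259027-50260024 had 24.2-fold and 24.1-fold enrichment, 143 kb from MYO16, an unconventional myosin of neurons.

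The other members of the strongest 12 also lay between genes. NW_023416306.1:89352683-89353409 had 21.1-fold and 19.95-fold enrichment, 226 kb from the unnamed gene LOC118600427. NW_023416308.1:92586655-92587695 had 15.4-fold and 14.0-fold enrichment, 53.7 kb from CCDC179 and 81.2 kb from GAS2. NW_023416284.1:104069463-104070436 had 21.7-fold and 20.5-fold enrichment, 442 kb from MMUT. Among all cerebellum-only regions outside genes, the median distance to a gene was 118 kb. NW_023416307.1:35011163-35012258 had 20.5-fold and 19.7-fold enrichment, 219 kb from NAALADL2. NW_023416284.1:141472913-141473702 had 16.1-fold and 15.4-fold enrichment, 27.5 kb from the unnamed gene LOC118614135 and 298 kb from HACE1. The widest cerebellum-only region of all, NW_023416288.1:17359947-17362308, was 2362 bases wide. It lay 19.6 kb from the unnamed gene LOC107519053 and 65.5 kb from CDK6, a cell cycle kinase.

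Of the 30 regions at gene ends, the strongest touched the span of LONRF3, with 19.9-fold enrichment in bat 1 and 14.0-fold in bat 3. The next, at SMARCA2, a chromatin remodelling ATPase, had 13.1-fold and 11.4-fold enrichment. Regions at TLX3, HDAC2 and JAK2 overlapped the gene's span and lay within 1 kb of an end. TLX3 is a homeobox factor of hindbrain and spinal neurons (7.56-fold and 5.73-fold), and its region lay 29 bases from a peak of another library. HDAC2 is a histone deacetylase (4.82-fold and 5.18-fold), and JAK2 a cytokine receptor kinase (8.50-fold and 7.22-fold). The region at ITPR2, an intracellular calcium release channel, lay 0.594 kb outside it, with 6.55-fold and 6.10-fold enrichment. No gene of the cell type lists described below was among those nearest to these 30 regions.

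Long genes held many of the regions. Of 19054 protein-coding genes, 1380 (7.24%) had a cerebellum-only region inside or within 50 kb, and the median over all genes was 0. The share rose with gene length, from 3.58% of genes under 20 kb to 7.19% at 20 to 100 kb, 22.5% at 100 to 500 kb and 54.8% of the 177 genes of 500 kb and over. Long genes also hold more strong cerebellum regions of any kind. Relative to those, 0.451% of the strong regions inside genes under 20 kb were cerebellum-only, and 6.81% of those inside genes of 500 kb and over. Of the cerebellum-only regions inside genes, 25.1% were inside a gene of 500 kb or more, against 11.1% of the regions with a peak elsewhere.

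The gene with the most was DMD, which encodes dystrophin, a protein that links the cytoskeleton to the membrane in muscle and is also made in Purkinje cells. It held 9 cerebellum-only regions among 38 strong cerebellum regions (23.7%, where 4.50% is the share over all). Their fold ran from 5.25 to 16.4 in bat 1 and from 4.48 to 15.8 in bat 3. The highest in bat 1, NW_023416312.1:17404679-17405994, had 16.4-fold and 15.1-fold enrichment, and NW_023416312.1:17957373-17957940 had 15.2-fold and 15.8-fold. IL1RAPL1, which encodes a synaptic adhesion protein, held 8 of 24, from 6.17-fold to 13.3-fold in bat 1 and from 5.34-fold to 11.7-fold in bat 3. Both genes lie on the same scaffold, NW_023416312.1, where 11.9% of all strong cerebellum regions were cerebellum-only.

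SLC16A7, the monocarboxylate transporter MCT2 that takes up lactate into neurons, stood out for its share. Of 9 strong cerebellum regions in or within 50 kb of it, 6 were cerebellum-only (66.7%), and its span is 85.2 kb. The strongest, NW_023416295.1:123751057-123751786, had 17.8-fold enrichment in bat 1 and 17.3-fold in bat 3. The other 5 ran from 5.12-fold to 11.9-fold in bat 1 and from 4.75-fold to 10.01-fold in bat 3. All 5 were below the strongest in both animals.

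The rest of the 15 genes with the most regions included adhesion molecules and synaptic scaffolds. Whether such genes were more frequent here than among other long genes was not tested. PCDH9, a protocadherin, had 7 regions of 50, DLG2, the postsynaptic scaffold PSD-93, had 6 of 57, and CDH18, a cadherin, had 5 of 28. PTPRD, a receptor phosphatase of presynaptic terminals, had 5 of 65 (7.69%). The share of strong regions was 6.81% inside genes of 500 kb and over, and 4.50% over all. MPP7, a polarity scaffold, had 5 of 19. PDE4D, a cAMP phosphodiesterase, had 5 of 63, and GALNTL6 5 of 51. NAALADL2 had 4 of 11. DIAPH2, a formin whose gene also lies on NW_023416312.1, had 4 of 14 and was the last of the 15 genes by count. A further 15 genes also had 4, and the tie was broken by share after the values were seen.

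Within 50 kb, glutamate receptors were the list with the highest share of genes with a region. Of 26 receptor genes, 9 (34.6%) had a cerebellum-only region in or within 50 kb, against 7.24% of all genes, and in all 9 a region lay inside the gene. The list's genes are long, with a median span of 299 kb against 17.2 kb over all genes, and the part of length in this count was not tested. Over all genes, 22.5% of those of 100 to 500 kb and 54.8% of those of 500 kb and over had a region within 50 kb. Of the strong cerebellum regions at the receptor genes, 7.64% were cerebellum-only, against 8.33% for Bergmann glia and astrocyte genes. Over all genes it was 2.13%, where a region counts once for each gene near it and most genes are short. Inside genes of 100 to 500 kb it was 4.18%, and 6.81% inside genes of 500 kb and over. Within 250 kb the share of receptor genes was 42.3%, below the 52.9% of cerebellar inhibitory interneuron genes and the 46.2% of GABA-A receptor genes. The median number of regions per gene was 0 for the list and for all genes.

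GRIA4, an AMPA receptor subunit that Bergmann glia and granule cells use, had 5 of 21, with 4.796-fold to 9.74-fold in bat 1 and 3.88-fold to 9.33-fold in bat 3. Of these 5, 3 lay inside it, 1 in the neighbouring MSANTD4 and 1 between genes. GRIK2, a kainate receptor subunit, had 4 of 22, led by NW_023416284.1:139552140-139553172 with 9.94-fold and 8.09-fold enrichment.

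GRM7, a presynaptic metabotropic receptor, had 1 region with 14.0-fold and 9.91-fold enrichment. Lower values were found in the regions of GRM3 (3.50-fold and 3.43-fold), GRM5 (3.57-fold and 3.16-fold), GRIN2B (5.29-fold and 5.56-fold) and GRIN3A (7.78-fold and 6.99-fold). Of 13 GABA-A receptor genes, with a median span of 69.2 kb, 2 (15.4%, against 7.24% of all genes) had 1 region each, among them GABRB1 (10.2-fold and 7.38-fold). GABRA6, a subunit made largely by granule cells, had its nearest 229 kb away. Of 13 cerebellins, neurexins and partners, with a median span of 103 kb, 3 had a region (23.1%, against 7.24% of all genes). Among them was NRXN3 (6.64-fold and 6.85-fold at the stronger of its pair).

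**Figure D3:**
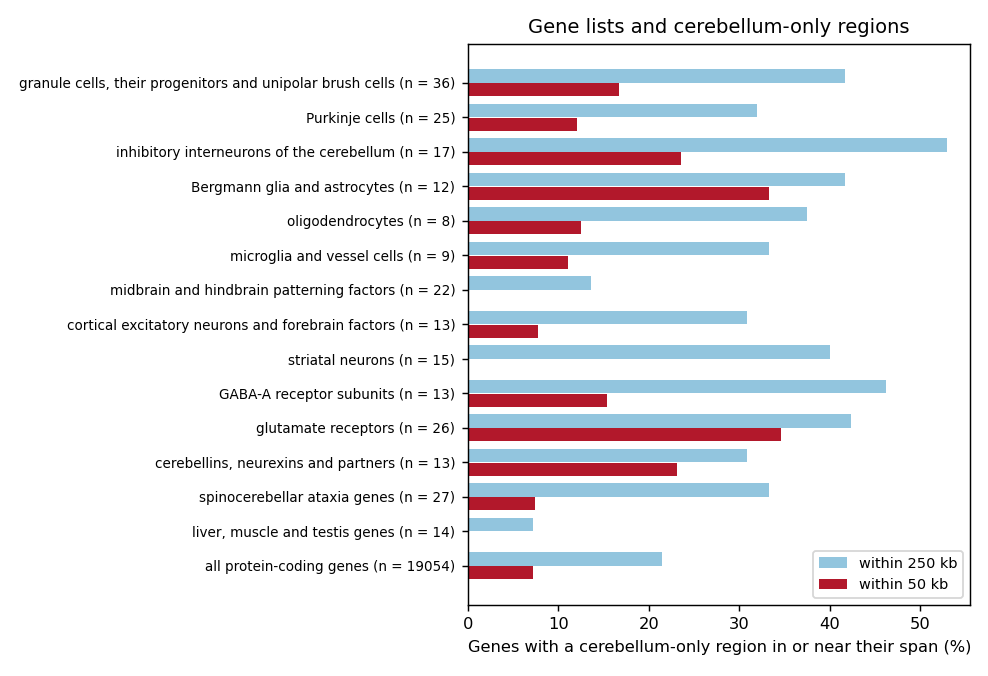
Percent of the genes of each list with a cerebellum-only region inside or within 50 kb (red) or 250 kb (blue) of their span, with the number of genes in the table and the same over all protein-coding genes in the bottom row. Glutamate receptors reach 34.6% within 50 kb and all genes 7.24%, and no patterning factor, striatal or peripheral gene has a region within 50 kb.

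Among 36 genes of granule cells, their progenitors and unipolar brush cells, 6 had a region within 50 kb (16.7%, against 7.24% of all genes). The list's median span is 18.4 kb, but NFIA, NFIB, TIAM1 and UNC5C span 218 to 353 kb. Over all genes of 100 to 500 kb, 22.5% had a region, and the part of length was not tested. Of the strong cerebellum regions at the list's genes, 2.55% were cerebellum-only, against 2.13% over all genes. UNC5C, a netrin receptor, had 2 inside it, with 7.72-fold and 5.21-fold enrichment at the stronger. NEUROD1, a bHLH factor that granule cells keep, had 1 region 1.70 kb from its span (4.33-fold and 4.19-fold). TIAM1, a Rac activator, had 1 inside with 9.63-fold enrichment in bat 1 and 5.31-fold in bat 3. The nuclear factors NFIA (4.84-fold and 5.75-fold) and NFIB (6.90-fold and 7.40-fold) had 1 each inside, and ZIC4 had 1 at 31.5 kb. Within 250 kb the count was 15 of 36 (41.7%), against 21.5% of all genes, and lists of other cells were also above that value. In the same window it was 40% of striatal genes, 30.8% of cortical genes, 37.5% of oligodendrocyte genes and 46.2% of GABA-A receptor genes.

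Several granule cell genes had regions only at these longer distances, and they were picked out after the values were seen. PAX6, a factor of granule cell precursors, had 3 within 250 kb, all inside its neighbour ELP4, from 6.99-fold to 9.72-fold in bat 1 and from 5.21-fold to 7.49-fold in bat 3. ETV1, an activity-dependent factor of maturing granule cells, had 4 within 250 kb. The strongest of them, NW_023416288.1:25851086-25851956, lay 131 kb away in DGKB, with 17.1-fold and 13.1-fold enrichment. CADPS2, a regulator of dense-core vesicle release, had 3, all inside SLC13A1, from 10.1-fold to 22.2-fold in bat 1 and from 6.58-fold to 16.9-fold in bat 3. CBLN1, a cerebellin released by granule cells, had its nearest 10817.9 kb away.

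Of 25 Purkinje cell genes, 3 (12%) had a region, against 7.24% of all genes. The median span of the list is 85.9 kb, and the share over all genes was 7.19% at 20 to 100 kb and 22.5% at 100 to 500 kb. The region of PLCB4, a phospholipase of Purkinje cells, had 7.22-fold enrichment in bat 1 and 4.81-fold in bat 3. Within 250 kb, 8 of the 25 genes (32%) had a region, against 21.5% of all genes. EBF2 had its nearest 96.9 kb away and PLCB3 117 kb away, while PCP2, CALB1, ITPR1, RORA and SKOR2 had none within 1000 kb. Of 17 genes of cerebellar inhibitory interneurons, 4 had a region (23.5%, against 7.24% of all genes). The median span of this list is 29.3 kb, but NXPH1 spans 268 kb and PTPRK 474 kb. NXPH1, a neurexin ligand, had 2 inside it, led by 12.4-fold and 10.3-fold enrichment. PTPRK, a receptor phosphatase, had 2 (8.41-fold and 6.01-fold at the stronger). LGI2 (7.27-fold and 7.15-fold) and PVALB, the calcium buffer parvalbumin (9.30-fold and 5.21-fold), had 1 each.

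Bergmann glia and astrocyte genes had 4 of 12 (33.3%, against 7.24% of all genes), none of them with a region inside. Within 25 kb only 1 of the 12 had a region. The glutamate transporter SLC1A3 had 2 within 50 kb, 10.6-fold and 8.04-fold in bat 1 and 8.27-fold and 8.05-fold in bat 3. SOX2, a factor of neural stem cells and glia, had 1 at 41.3 kb, with 11.3-fold and 8.26-fold enrichment. SLC1A2 (8.08-fold and 5.75-fold) and PTPRZ1 (6.22-fold and 6.44-fold) had 1 each. Among 8 oligodendrocyte genes 1 had a region (12.5%, against 7.24% of all genes). Among 9 microglial and vessel genes 1 did (11.1%), P2RY12 (3.91-fold and 4.17-fold, 49.9 kb away).

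The ataxia list overlapped these counts. Of 27 spinocerebellar ataxia genes, 2 had a region (7.41%, close to 7.24% of all genes), among them ELOVL4, a fatty acid elongase (2.78-fold and 2.45-fold). None of 22 midbrain and hindbrain patterning factors had a region within 50 kb. These genes are short, with a median span of 6.08 kb, and 3.58% of all genes under 20 kb had a region. A strong cerebellum region without a cortical or striatal peak lay within 50 kb of 2 of them (9.09%, against 14.2% of all genes). EN2, a factor of the midbrain and hindbrain, had its nearest cerebellum-only region 2982 kb away.

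Lists of other tissues gave counts near or below that of all genes (7.24%). None of 15 striatal genes and none of 14 liver, muscle and testis genes had a region within 50 kb. Of 13 cortical genes 1 had a region (7.69%). The genes of the striatal and peripheral lists are short, with median spans of 5.06 and 9.28 kb, and 3.58% of all genes under 20 kb had a region. Within 250 kb, 6 of the 15 striatal genes (40%) had a region, and 1 of the 14 peripheral genes (7.14%). Over all 14 lists, 32 of 234 different genes had a region (13.7%). A peak measures accessibility and not expression, so these counts do not check the tissue label.

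Regions also lay in groups. When regions no more than 50 kb apart were joined, 1504 stood alone, and 453 (23.1%) fell into 204 groups of 2 or more. Pairs made up 169 of these groups, triplets 30, and 5 groups had 4 to 6 regions. A group of 6 filled the 112 kb of NW_023416311.1:98285364-98397328. Its nearest gene was the unnamed LOC107506592, 445 kb away, and CDH9, a cadherin, lay 653 kb away. In this group NW_023416311.1:98353676-98354203 was 6.32-fold enriched in bat 1 and 15.7-fold in bat 3, while the other 5 were higher in bat 1. A group of 4 lay inside MPP7, with 5.85-fold to 12.5-fold enrichment in bat 1 and 6.06-fold to 9.59-fold in bat 3.

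By count within 500 kb of a gene, the highest values were at ZIC1 and ZIC4, adjacent zinc finger genes of granule cells whose joint loss in people goes with a malformed cerebellum. Within 500 kb of ZIC1 lay 15 cerebellum-only regions among 54 strong cerebellum regions (27.8%, where 4.50% is the share over all). No peak in cortex or striatum was found at 26 of the 54, where 10.5% is the share over all strong cerebellum regions. No other protein-coding gene than these 2 had 15 or more within 500 kb, and the median over all genes was 0. Inside ZIC1 and within 50 kb of it there was none, and the nearest, 55.4 kb away, was weak (3.04-fold in bat 1 and 3.18-fold in bat 3).

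On the side of ZIC1 away from ZIC4, 6 regions formed a group over 149 kb, at NW_023416307.1:97283874-97433240, 141 to 289 kb from ZIC1. The gene nearest to all 6 was the unnamed protein-coding gene LOC107513406, 13.5 to 162 kb away. They were 6 of the 9 strong cerebellum regions in that stretch. Their fold ran from 9.31 to 14.7 in bat 1 and from 7.16 to 14.0 in bat 3. The strongest, NW_023416307.1:97356115-97356833, had 14.7-fold and 14.0-fold enrichment and lay 213 kb from ZIC1. All 6 were above the median of the set in both animals. On the ZIC4 side, 8 regions lay 55.4 to 489 kb from ZIC1, from 3.04-fold to 9.84-fold in bat 1 and from 3.18-fold to 9.53-fold in bat 3. Between the group and ZIC1, a single region at 70.2 kb had 9.09-fold and 4.98-fold enrichment.

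**Figure D4:**
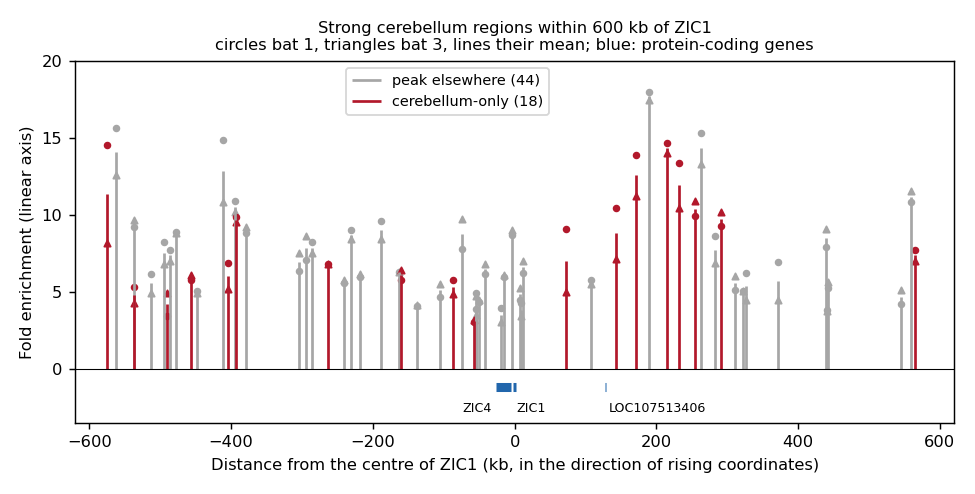
Strong cerebellum regions within 600 kb of ZIC1, placed by distance from its centre (x axis, kb) with their fold enrichment (y axis) in bat 1 (circles) and bat 3 (triangles), lines at the mean of both, and protein-coding genes as blue bars. The cerebellum-only regions (red) include a group of 6 at 141 to 289 kb from ZIC1, with 9.31-fold to 14.7-fold enrichment in bat 1.

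The scaffold NW_023416312.1 had a larger share of cerebellum-only regions than any other large scaffold. It carries DMD, IL1RAPL1, DIAPH2 and FRMPD4, which are X-linked in other mammals. Of its 1341 strong cerebellum regions, 159 (11.9%) were cerebellum-only, against 4.26% on the rest of the genome and 1.69% to 6.07% on the other 17 large scaffolds, those with at least 300 strong cerebellum regions. Leaving out regions at gene ends, the shares were 16.3% and 5.57%. Its strong cerebellum regions had a peak in a mean of 2.13 of the 6 peripheral libraries, against 3.41 elsewhere, and in 9.11 of the 12 cortical and striatal libraries, against 9.46. No peak in those 12 was found at 13.6%, against 10.4%.

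The strong cerebellum regions of this scaffold had a median fold of 10.4 in bat 1 and 8.90 in bat 3, against 9.66 and 8.37 elsewhere. All of these had passed the rank limit, so the medians leave out weaker regions and cannot compare signal over whole scaffolds. The share of regions found in a single tissue went in different directions in muscle and testis. Of 596 strong muscle regions on the scaffold, 31 (5.2%) were muscle-only, against 3.25% elsewhere. Of 366 strong testis regions there, 12 (3.28%) were testis-only, against 7.02% elsewhere. These counts are small. Both animals were male. Without this scaffold 1798 cerebellum-only regions remained.

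**Figure D5:**
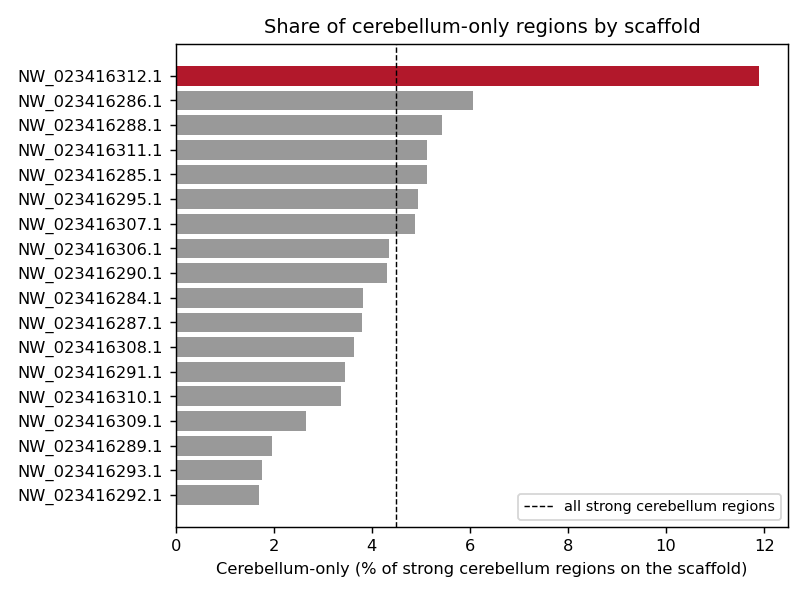
Percent of the strong cerebellum regions of each large scaffold that were cerebellum-only (bars), with the 4.50% over all regions as a dashed line. Scaffold NW_023416312.1 (red) is at 11.9% and the other 17 between 1.69% and 6.07%.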

How the data were processed

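Nuclei were released from frozen tissue by homogenisation, per the labels' protocols, and the tools include Bowtie2 and MACS2, per the submitters' processing notes. Genome build and aligner settings were not given in the sources used here. The authors deposited 1 peak list per library, called without pooling animals, with fold enrichment (a ratio) and -log10 p per peak. Rows with the same interval were merged, keeping the highest -log10 p. Lists were compared in Python 3.11.15 (pandas 2.3.3) by overlap of at least 1 base, checked on simulated lists against bedtools 2.31.1. Positions follow the files and count from 1. The 12 RNA libraries were not used.

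Gene runs of the RefSeq table (assembly mRouAeg1.p) were placed on the scaffold where most of their ends lay within 500 bases of summits among the 30000 strongest peaks of the 2 cerebellum and 2 premotor lists. In the 18 runs of at least 200 genes, 43.7% to 63.8% of genes matched, and 5.98% to 9.55% on the next best scaffold, but windows went down to 2% on their own. Only distances are given, since the table's build is not named by the files.

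The text names the 12 regions whose weaker -log10 p was highest, the widest region, the 15 genes with the most regions, and list genes with a region; other names were chosen after their values were seen. Some genes this rule names are not reported here. Members and lists were chosen with earlier results of these data known. No test was run, and no sequence motif was searched. Replicates are the 2 animals.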

Additional observations from a re-analysis of the deposited data

How the results depend on the processing

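The region count of 1957 depended on the definition. It was 609 with the 25000 strongest intervals, 6168 with 100000 and 17901 with every deposited cerebellum interval. It was 9511 when weaker peaks elsewhere were allowed, 1283 when none was allowed within 500 bases and 4555 when absence was asked of cortex and striatum only. Leaving out an animal gave 3971 to 4158. Ranking by fold gave 1912, of which 1682 of the 1957 were overlapped (85.9%). A reciprocal overlap of 50% gave 1863, absence not asked of liver 2386, and the count without scaffold NW_023416312.1, chosen after seeing the data, 1798. The share at a gene end was 4.19% within 2.5 kb and 0.493% with the 25000 strongest, and the share inside a gene 35.6% with the 25000 strongest. The 32 list genes became 12 with the 25000 strongest, 88 with 100000 and, in a setting chosen after seeing the data, 60 with absence asked of cortex and striatum only. Of 70 recomputed counts of single lists, 39 stayed within 1.5 times and 31 did not. Windows of 250 and 500 kb were added after seeing the data. No paired analysis was possible because no result comes from a test. Absence can only be stated down to the lowest -log10 p of each list, and 2 animals limit the precision.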
